A study of Mus musculus with 2 samples.

Results

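The 9 genes described here are the mouse Hedgehog receptors and co-receptors Ptch1, Smo, Boc, Cdon and Gas1, the transcription factors Gli1, Gli2 and Gli3, and the Hedgehog-binding protein Hhip. They were picked out by gene symbol from a table of 37309 genes, of which 22379 are protein-coding. The set was chosen by pathway role with the RPKM values of these same libraries already known, so the values below describe the members and test nothing. RNA was sequenced from 1 library of supportive intestinal subepithelial myofibroblasts (ISEMFs), grown in culture from the small intestine of neonatal C57BL/6 mice. It was set beside 1 library of non-supportive ISEMFs, grown in the same way from the small intestine of adult C57BL/6 mice. Supportive cells are those that let intestinal crypts grow without added R-spondin, a Wnt agonist, and non-supportive cells did so only weakly. Both populations are cultured wild-type cells with no transgene or treatment that differs between them. Each population was sequenced once, so no difference has a replicate check, and population, age of the mice, isolation and any difference in culture passage cannot be told apart.

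Hedgehog proteins are secreted signals which the gut epithelium sends to the mesenchyme beneath it. The receptor Patched holds the membrane protein Smoothened (Smo) inactive until a Hedgehog ligand binds, and Boc, Cdon and Gas1 are co-receptors which help the ligand bind Patched. Active Smo acts through the primary cilium on the Gli factors, of which Gli3 is known mainly as a repressor in its cleaved form, Gli2 mainly as an activator, and Gli1 as an activator whose own gene is a Hedgehog target. Ptch1 and Hhip are also textbook target genes, and their products restrain the pathway by holding back Smo or by binding the ligand.

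Reads on genes numbered 50674472 for supportive and 49615497 for non-supportive ISEMFs, of which 40385 and 9090 fell on the 9 members. Levels are given as RPKM, which is the read count scaled by exon length and by library size. Ratios are of supportive over non-supportive ISEMFs, with the 95% exact Clopper-Pearson interval from the reads, and intervals of a level are 95% exact Poisson intervals. All of these cover counting error only. Log2 ratios carry a pseudocount of 0.1 on RPKM, which pulls the ratios of weakly expressed genes toward 0. In cultures measured in bulk, fewer cells of a type and less RNA per cell cannot be told apart. The labelled cell type carried its markers, with Acta2, the gene of α-smooth muscle actin, at an RPKM of 908 and 1410 and Vim at 325 and 407 in supportive and non-supportive ISEMFs. Desmin (Des), a muscle intermediate filament, was at 0.575 and 3.40.

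Of the 9 members, 5 were at least 2-fold higher in supportive ISEMFs on the log2 scale with the pseudocount, and 0 were at least 2-fold lower. The higher genes were Hhip, Gli1, Cdon, Ptch1 and Gli2. Smo lay just below the 2-fold line with a log2 ratio of 0.96, and Gli2, at 2.16, was the nearest gene above it. Boc, Gas1 and Gli3 had log2 ratios between -0.35 and -0.09. Over the 9110 protein-coding genes that reached an RPKM of 1 in either library, 9.25% were at least 2-fold higher and 8.98% at least 2-fold lower in supportive ISEMFs. That minimum was reached by 8 of the 9 members, Gas1 being the exception. Hhip, Gli1 and Gli2 reached it only through the supportive library, where they were high. Their passing the filter is thus not independent of their difference. The members were chosen with this contrast known, and nothing is read from their share against the background.

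**Figure D1:**
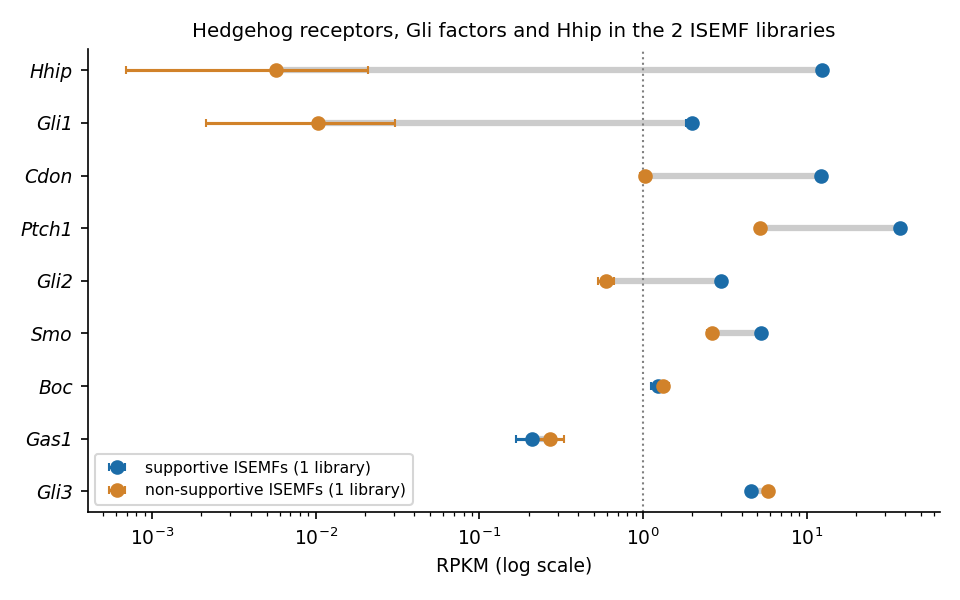
RPKM of the 9 members (rows, in order of their log2 ratio) on a log axis in the 1 supportive library (blue) and the 1 non-supportive library (orange), with 95% exact Poisson intervals that cover counting error only and a dotted line at an RPKM of 1. Hhip and Gli1 lie at 12.3 and 1.98 in supportive ISEMFs and at 0.00573 and 0.0104 in non-supportive ISEMFs, while for Boc, Gas1 and Gli3 the points of the 2 libraries lie close to each other within each gene.

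Hhip encodes Hedgehog-interacting protein, which binds all mammalian Hedgehog ligands at the cell surface or in soluble form and keeps them from Patched. In mm9 the gene (ENSMUSG00000064325) spans 82490014 to 82581905 of chromosome 8, minus strand, with 14 exon blocks. Supportive ISEMFs gave 4428 Hhip reads and non-supportive ISEMFs 2. The RPKM values were 12.3 (interval 11.97 to 12.7) and 0.00573 (interval 0.000694 to 0.0207). Hhip was thus well expressed in supportive ISEMFs and close to undetected in non-supportive ISEMFs. The ratio of the RPKM values was 2152, with an interval of 595 to 17772 that is wide because it rests on 2 reads. The log2 ratio of 6.88 was rank 2 among the 9110 expressed protein-coding genes. Hhip was rank 1885 by RPKM among protein-coding genes in the supportive library and rank 15201 in the non-supportive one. The RefSeq promoter of Hhip is shown because this gene differed most among the members. The 250 bases before its start site, matched to mm9 at chr8:82581908-82582157 on the minus strand, hold 28 CpG dinucleotides, printed in capitals.
Hhip: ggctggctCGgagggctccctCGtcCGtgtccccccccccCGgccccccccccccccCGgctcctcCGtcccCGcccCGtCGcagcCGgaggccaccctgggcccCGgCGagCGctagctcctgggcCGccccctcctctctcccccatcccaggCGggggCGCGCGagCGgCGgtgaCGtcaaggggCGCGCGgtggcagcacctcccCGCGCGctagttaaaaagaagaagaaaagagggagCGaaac

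Ptch1 encodes the main Hedgehog receptor. The gene (ENSMUSG00000021466) spans 63610261 to 63674474 of chromosome 13, minus strand, with 26 exon blocks and 4 annotated transcripts. Supportive ISEMFs gave 18997 reads, at an RPKM of 37.2, and non-supportive ISEMFs gave 2584, at 5.20. Ptch1 was the highest of the 9 members in supportive ISEMFs and was also clearly present in non-supportive ISEMFs. The RPKM was 7.14-fold higher in supportive ISEMFs (interval 6.86 to 7.45), a log2 ratio of 2.81, at rank 156 among expressed genes.

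The letters GACCACCCA, a consensus that Gli proteins bind, were searched on both strands within 2 kb of the annotated starts of protein-coding transcripts in mm9, for the 7 members with an entry in the RefSeq promoter table. The consensus was found only near Ptch1, where it stood once upstream of each of 2 of its 4 transcript starts. The sites are shown because Ptch1 is a textbook Gli target and had the highest level of the members in supportive ISEMFs. Each is printed on the strand of the gene with 20 bases on either side, and the capitals mark the consensus or its reverse complement. The site at chr13:63667743-63667751 was centred 919 bases before a start, and the site at chr13:63674773-63674781 was centred 303 bases before the other.
Ptch1 site 919 bases upstream: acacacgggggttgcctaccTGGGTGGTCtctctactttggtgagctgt
Ptch1 site 303 bases upstream: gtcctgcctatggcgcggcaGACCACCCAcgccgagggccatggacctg

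The same letters lay within 2 kb of 3.48% of 46013 annotated starts of protein-coding transcripts, and near at least 1 start of 4.46% of 22238 genes. No match near Hhip, Gli2, Gli3, Smo, Cdon and Gas1 says only that these letters are not in those windows, and a match is not evidence of binding. In the RefSeq promoter windows of 300 bases, 0 of 7 members held the consensus with at most 1 mismatch, against 6.74% of 32851 windows. Of these 7 windows, 6 had more CpG dinucleotides than the median window, which had 7. Ptch1 had 47 and Hhip 30, and the exception was Cdon with 3. The windows of both Ptch1 and Cdon lie at internal starts and not at the first annotated start of the gene. RefSeq windows, given by the table on the GRCm38.p6 build, each matched mm9 at 1 place. Promoters of Gli1 and Boc were not analysed here.

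Smo encodes the transmembrane protein which relays the signal once Patched has bound ligand. It spans 29685694 to 29711365 of chromosome 6, plus strand, with 12 exon blocks. Supportive ISEMFs gave 1415 reads, at an RPKM of 5.24, and non-supportive ISEMFs 692, at 2.64. Smo was present in both libraries at levels far closer than those of Ptch1. The ratio was 1.99, and its interval of 1.81 to 2.18 spans 2-fold. With TMM scaling its log2 ratio was 1.02, so that 6 members were then at least 2-fold higher. Over all genes, 910 of 9115 expressed protein-coding genes were higher with that scaling. A pseudogene, Gm13717, lies within Smo on the same strand and had 24 and 16 reads. The RPKM of Ptch1 was 7.10-fold that of Smo in the supportive library (interval 6.72 to 7.496) and 1.97-fold in the non-supportive library (interval 1.81 to 2.15). These ratios within a library do not depend on library size.

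Cdon, a cell surface protein of the immunoglobulin superfamily, was the co-receptor that differed between the libraries. The gene spans 35228713 to 35315236 of chromosome 9, plus strand, with 23 exon blocks. It had 9503 reads, at an RPKM of 12.3, in supportive ISEMFs, against 771, at 1.03. The ratio was 11.98 (interval 11.1 to 12.9) and the log2 ratio 3.46, at rank 89. Boc, its closest relative, spans 44485158 to 44559010 of chromosome 16, minus strand. Its reads were nearly equal, 475 at an RPKM of 1.23 for supportive and 493 at 1.32 for non-supportive ISEMFs. The Boc ratio of 0.936 had an interval of 0.824 to 1.06, so a difference was not detectable beyond counting error. Gas1, a co-receptor anchored in the membrane by a lipid, spans 60275766 to 60278726 of chromosome 13, minus strand, in 1 exon block. With 86 and 108 reads it was the lowest co-receptor in each library, at an RPKM of 0.210 and 0.272. Its ratio was 0.774 (interval 0.576 to 1.04).

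The make-up of the co-receptors differed between the libraries. Cdon made 89.5% of their summed RPKM in supportive ISEMFs and 39.3% in non-supportive ISEMFs. Boc made 8.96% and 50.3%, and Gas1 1.53% and 10.4%. These shares rest on the deposited exon lengths and would shift with those of the annotation used here, which are shorter most for Gas1 and Cdon. Per length, Cdon was 9.99-fold the level of Boc in the supportive library (interval 9.11 to 11.0) and 0.781-fold in the non-supportive library (interval 0.696 to 0.876). With the exon lengths of the annotation used here the latter value was 0.903 with an interval of 0.806 to 1.01, so the order of Cdon and Boc in non-supportive ISEMFs depends on the lengths. The summed RPKM of the co-receptors was 13.7 and 2.61.

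Gli1 gave 590 reads in supportive ISEMFs, at an RPKM of 1.98 (interval 1.83 to 2.15), and 3 in non-supportive ISEMFs, at 0.0104 (interval 0.00214 to 0.0303). The gene spans 126766945 to 126778645 of chromosome 10, minus strand, with 13 exon blocks. Gli1 was the lowest of the 3 Gli genes in both libraries and nearly undetected in non-supportive ISEMFs. Its ratio was 191 with an interval of 65.1 to 929, and its log2 ratio of 4.24 was at rank 48. In 55 bases Gli1 overlaps Arhgap9 on the other strand, to which 18 and 59 reads were assigned.

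Gli2 spans 120730709 to 120950196 of chromosome 1, minus strand, with 16 exon blocks. It had 1563 reads in supportive ISEMFs, at an RPKM of 3.0, and 301 in non-supportive ISEMFs, at 0.594. The ratio was 5.05 (interval 4.46 to 5.73). Gli3 spans 15555068 to 15821859 of chromosome 13, plus strand, also with 16 exon blocks. Its ratio lay on the other side of 1, with 3328 reads at an RPKM of 4.56 against 4136 at 5.84. Gli3 was 1.28-fold lower in supportive ISEMFs, with an interval of 1.22 to 1.34 that covers counting error only.

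In the supportive library Gli3 made 47.8% of the summed RPKM of the Gli factors, Gli2 31.4% and Gli1 20.8%. In the non-supportive library Gli3 made 90.6%, Gli2 9.23% and Gli1 0.161%. Gli3 led in both libraries, but Gli1 and Gli2 together exceeded it in supportive ISEMFs. Per length, Gli2 was 0.657-fold the level of Gli3 in the supportive library (interval 0.619 to 0.698) and 0.102-fold in the non-supportive library (interval 0.0903 to 0.115). The summed RPKM of the 3 genes was 9.54 and 6.44.

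**Figure D2:**
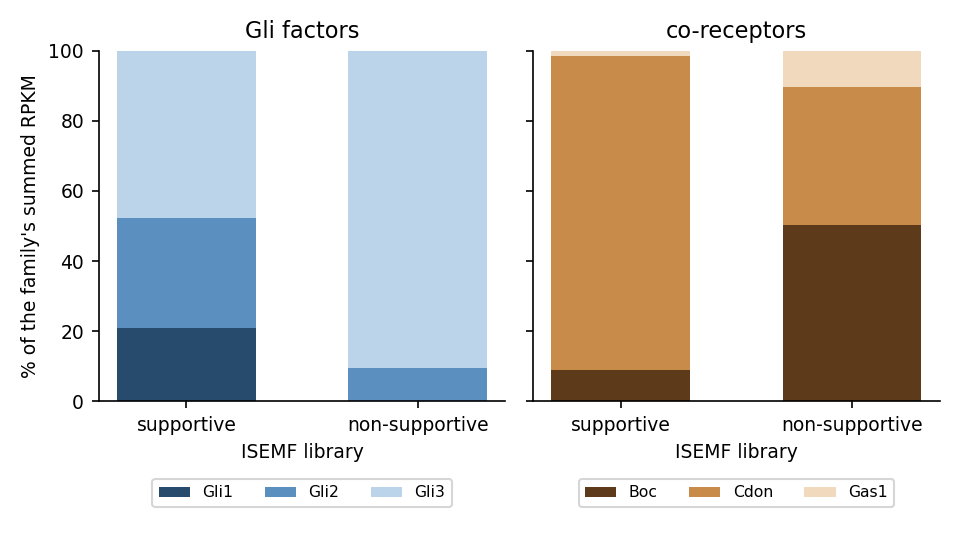
Share of the summed RPKM, in percent, of each Gli factor (left) and each Hedgehog co-receptor (right) in the 1 supportive and the 1 non-supportive library. The shares rest on the deposited exon lengths. Gli3 takes 90.6% of the Gli bar in non-supportive ISEMFs and 47.8% in supportive ISEMFs, and Cdon takes 39.3% and 89.5% of the co-receptor bar.

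Ordered by RPKM, the supportive library ran from Ptch1 through Hhip, Cdon, Smo, Gli3, Gli2, Gli1 and Boc to Gas1. Of these neighbours, the counting intervals of Hhip and Cdon overlapped, with a ratio of 1.003 between them (interval 0.967 to 1.04). The non-supportive library ran from Gli3 through Ptch1, Smo, Boc, Cdon, Gli2, Gas1 and Gli1 to Hhip. There the intervals of Gli1 and Hhip overlapped, and no order can be read from their 3 and 2 reads. Hhip moved from the low end, which it shared with Gli1, in non-supportive ISEMFs to a place below Ptch1 in supportive ISEMFs. Gli3 moved from the first place to the fifth. Per length Hhip stood at 0.332-fold the level of Ptch1 in the supportive library (interval 0.321 to 0.343) and 0.00110-fold in the non-supportive library (interval 0.000133 to 0.00398). The lengths behind these levels are those of the deposited table, which exceed those of the annotation used here most for Gas1 (5726 against 2961 bases) and Cdon (10813 against 7714). With the annotated lengths Hhip was at 0.734-fold the level of Cdon in the supportive library (interval 0.708 to 0.761), so that these genes were level only with the deposited lengths. A different length moves a gene in both libraries alike and leaves its ratio between libraries as it is.

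**Figure D3:**
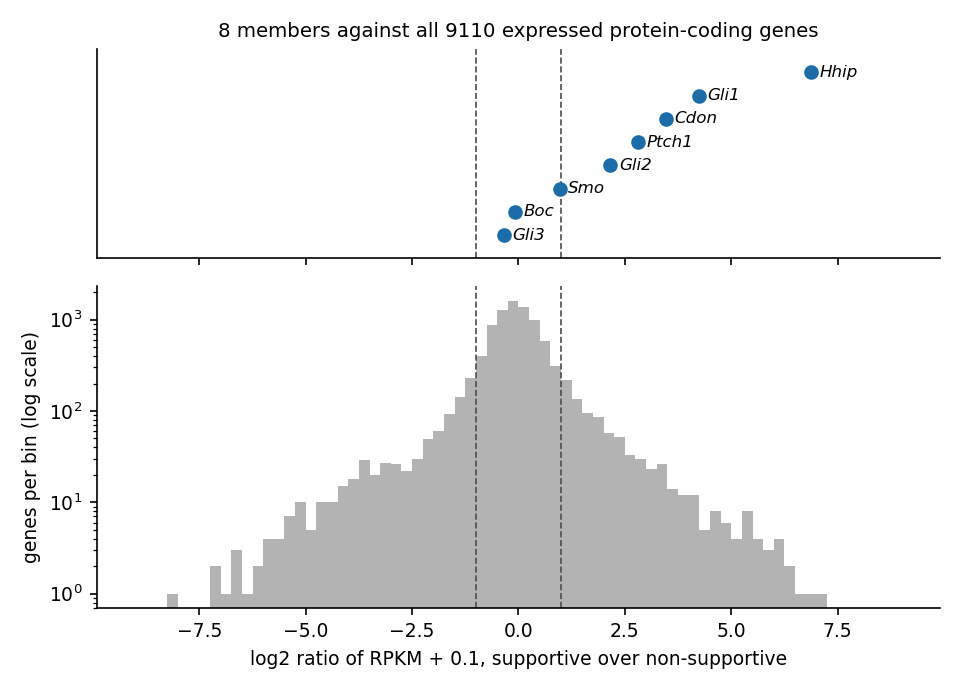
Log2 ratios (supportive over non-supportive, pseudocount 0.1 on RPKM) of the 8 members that reached an RPKM of 1 in either library (upper panel) above the histogram of all 9110 such protein-coding genes (lower panel, log axis), with dashed lines at 2-fold. Hhip at 6.88 lies at the right end of the distribution, Gli2 to Gli1 lie from 2.16 to 4.24, and Boc and Gli3 lie near its centre at -0.09 and -0.35.

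The genes nearest to Hhip, Ptch1 and Gli1 over the 2 libraries were found by the Euclidean distance in log2(RPKM + 0.1) among protein-coding genes. With 2 libraries this says only that the levels are alike. For Hhip they were Adamtsl3, at an RPKM of 16.05 and 0.0620 in supportive and non-supportive ISEMFs, Lgr5 at 7.22 and 0.00443, and Defb41 at 7.10 and 0.0308, at distances of 0.72 to 0.85. Lgr5 encodes the R-spondin receptor known as a marker of intestinal stem cells, and had 6702 and 4 reads. For Ptch1 they were Pon3 (33.5 and 5.45), Adamts1 (47.9 and 5.46) and Igfbp4 (35.0 and 6.74), at distances of 0.16 to 0.38. For Gli1 they were Susd5 (1.97 and 0.0149), A230006K03Rik (1.82 and 0 reads in the non-supportive library) and Ostn (1.60 and 0.0101), at distances of 0.06 to 0.29.

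Outside the 9 members, 59 further genes of the pathway were listed by role, of which 58 were in the table, 54 had a read and 29 reached an RPKM of 1 in either library. Of these 29, 3 were at least 2-fold higher, 3 at least 2-fold lower and 23 within 2-fold. Beside them stand the shares of 9.25% higher and 8.98% lower over all 9110 genes, and the counts of these 29 are near that background. Their log2 ratios ran from -3.57 to 4.01 with a median of 0.05, against -0.07 over all 9110 genes. Among the ligands, Shh and Ihh had 0 reads in both libraries. For 0 reads, the exact Poisson intervals reached up to an RPKM of 0.0192 for Shh and 0.0133 for Ihh in the supportive library. In the non-supportive library they reached up to 0.0197 and 0.0136. Levels within these intervals could have given 0 reads. Dhh, the ligand of Schwann and Sertoli cells, had 1 read in supportive and 6 in non-supportive ISEMFs. For ligand lipidation and release, 1 of the 4 genes in the table passed the minimum, the acyltransferase Hhat at an RPKM of 1.01 and 0.903, named after its value was seen. Disp1 was not analysed here.

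Among 18 regulators of Smo and the Gli factors, 10 had an RPKM of at least 1 and 0 differed by 2-fold, with log2 ratios from -0.60 to 0.75. The lowest was Spop, an adaptor that marks Gli proteins for breakdown, and the highest Tulp3, which brings receptors into the cilium, both named for their places at the ends of the list. Sufu, which holds Gli factors in the cytoplasm, had 597 and 633 reads at an RPKM of 0.718 and 0.784. The Sufu ratio of 0.917 had an interval of 0.818 to 1.03. Among 11 genes of the primary cilium, 7 passed the minimum and 1 was at least 2-fold higher. This was Ift172, a subunit of the intraflagellar transport complex, at an RPKM of 3.16 and 1.46 with a ratio of 2.17 (interval 1.96 to 2.40). The cilium genes spanned -0.60 to 1.07 with a median of 0.05.

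Other genes known as Hedgehog targets did not share 1 direction. Of 10 general targets, 7 passed the minimum, 0 were at least 2-fold higher and 2 at least 2-fold lower in supportive ISEMFs. Sfrp1, a secreted Wnt antagonist, was at an RPKM of 1.45 and 7.53, 5.21-fold lower (interval 4.70 to 5.77). Ccne1, the gene of cyclin E1, was at 1.51 and 3.40, 2.25-fold lower (interval 1.98 to 2.55). The cyclin genes Ccnd1 and Ccnd2, named after their values were seen, had log2 ratios of 0.26 and 0.13 with at least 42757 reads in each library.

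Of 11 targets known from gut mesenchyme, 4 passed the minimum, with 2 higher and 1 lower by 2-fold. Bmp4, a ligand which gut mesenchyme expresses in response to Hedgehog, was at an RPKM of 35.6 and 2.12, a ratio of 16.8 (interval 15.4 to 18.4). Osr1, a zinc finger factor of the mesoderm, was at 4.96 and 1.20, a ratio of 4.15 (interval 3.50 to 4.94). Foxf2, a forkhead factor of gut mesenchyme, was at 0.379 and 5.59, 14.8-fold lower in supportive ISEMFs (interval 11.4 to 19.3). Below an RPKM of 1 in both libraries, and named after their values were seen, were Foxf1a, Bmp2 and Myocd. Foxf1a, a relative of Foxf2, had 25 and 60 reads and was 2.47-fold lower (interval 1.53 to 4.11). Bmp2, a ligand related to Bmp4, had 0 and 234 reads and was at least 64.8-fold lower by the exact interval. Myocd, a coactivator of smooth muscle genes, had 591 and 37 reads, a ratio of 15.5 (interval 11.1 to 22.3). Nkx2-3, a homeobox factor of gut mesenchyme and the remaining gene past the minimum, was at 8.15 and 6.96. Bmp4, Osr1 and Myocd had ratios on the side of Ptch1, Gli1 and Hhip, and Foxf2, Foxf1a and Bmp2 had ratios on the other side.

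**Figure D4:**
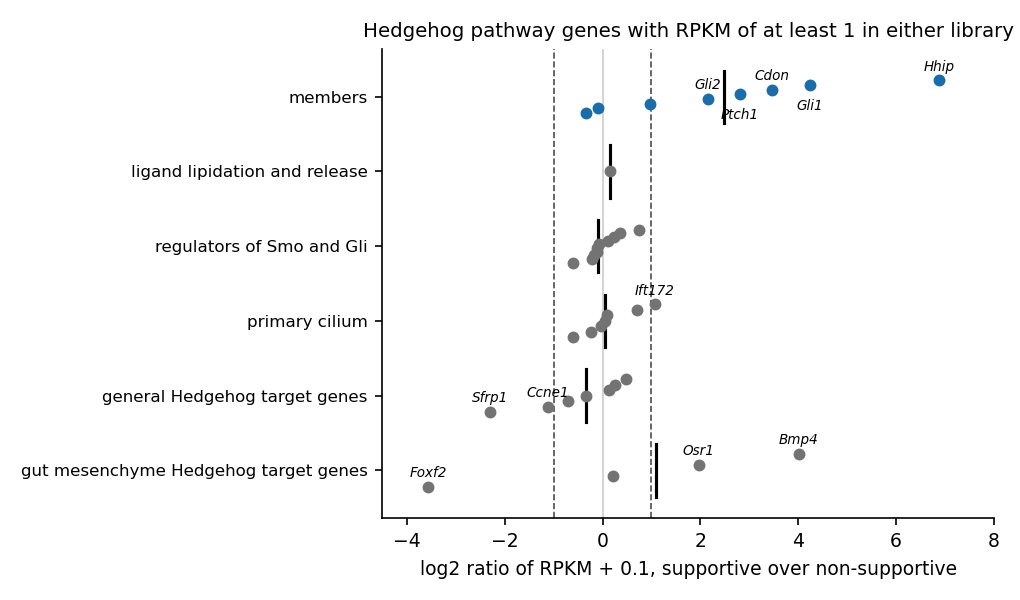
Log2 ratios (supportive over non-supportive, pseudocount 0.1 on RPKM) of pathway genes that reached an RPKM of 1 in either library, by list, with a black bar at each median, dashed lines at 2-fold and the names of genes past 2-fold. The 10 regulators of Smo and Gli lie within 2-fold, between -0.60 and 0.75, while the gut mesenchyme targets range from -3.57 for Foxf2 to 4.01 for Bmp4.

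Marker genes of other cell types, of smooth muscle and of proliferation were looked up beside the members. These lists did not all differ alike between the libraries. All 7 macrophage markers were lower in supportive ISEMFs, with a summed RPKM of 6.86 against 119, and Ptprc, Tyrobp and Aif1 had 0 reads there. Of 6 smooth muscle markers 5 were lower, with a summed RPKM of 570 against 960, and Smtn was the exception. Their summed level was high in both libraries, so they may not stand for other cells here. Of 5 neuron and glia markers S100b alone passed an RPKM of 1, at 6.69 and 0.116, with Sox10 at 0 reads in both libraries. The 5 epithelium markers did not share 1 direction. Krt20, at an RPKM of 0.0799 and 3.13, carried most of their summed RPKM of 0.540 and 3.25, Cdh1 lay on the other side with 159 and 18 reads, and Epcam had 0 and 5. The summed RPKM of the 5 endothelium markers was 0.0255 and 0.235, with Tie1 at 0 reads in both. Mesothelium markers summed to 0.127 and 0.0432, of which Upk3b with 21 and 0 reads made nearly all of the supportive value, while Msln had 0 and 5 reads and Wt1 had 1 and 7. Of the 5 proliferation genes 4 were within 2-fold and reached an RPKM of 1, and their list summed to 85.2 and 74.0. The part of these cells in the members' differences was not tested. Mitochondrial ribosomal RNA took 13.5% of the reads on genes for supportive and 7.13% for non-supportive ISEMFs. Leaving it out of the library sizes moved the log2 ratio of Ptch1 from 2.81 to 2.88 and that of Gli3 from -0.35 to -0.28. Both values then lay just past their counting intervals.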

How the data were processed

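RNA sequencing of 1 supportive and 1 non-supportive ISEMF library was analysed, with populations taken from the labels' titles. Per the paper's methods and the submitters' processing notes, the authors aligned single-end reads to mm9 with TopHat2 2.0.4 and Ensembl genes (release not given in the sources used here), kept unique hits and counted reads per gene with HTSeq 0.5.4p3. Raw read counts and the RPKM computed from them were deposited. The library sizes behind the RPKM, 71463423 and 69449374 reads, were worked back here from the counts, exon lengths and RPKM values. The deposited log2 ratios and DESeq p-values, and a shorter Wnt pathway table, were not used.

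With 1 library per population no test was made. Ratios and exact intervals were computed with Python 3.11.15, numpy 2.4.6, pandas 2.3.3 and scipy 1.17.1, and figures with matplotlib 3.10.9. TMM factors came from edgeR 4.0.16 in R 4.3.3, as an alternative only. In Poisson counts simulated at the levels of 13154 genes, 95.6% of intervals held the true ratio. The simulation held no spread between cultures, so it checks only the computation of the interval. Coordinates come from GENCODE vM1 on mm9, matched by identifier. The library kit does not mark strand, so reads in overlaps of genes on opposite strands cannot be told apart. Per the paper, reads that could not be placed on 1 gene alone were left out of the counts.

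The members and lists were chosen with earlier results of these data known. The rule for named genes took all members, pathway genes that reached an RPKM of 1 and differed by 2-fold, the ligands, Sufu, the 3 genes nearest in level to Hhip, Ptch1 and Gli1, and markers whose values bear on a member. A further gene named by the rule is not reported here. Other settings tried were pseudocounts (1 or 0.001), filters (RPKM of 5, none, or 10 reads), scalings (TMM, median of ratios, recentring, no mitochondrial ribosomal RNA), a 4-fold threshold and, chosen after seeing the data, the exon lengths of the annotation.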

Additional observations from a re-analysis of the deposited data

How the results depend on the processing

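The members kept the sign of their log2 ratios under both other pseudocounts and the 4 other scalings. Across pseudocounts and scalings, the log2 ratio of Hhip lay between 3.73 and 10.84, that of Gli1 between 1.56 and 7.45, Cdon between 2.71 and 3.58, Ptch1 between 2.62 and 2.88 and Gli2 between 1.33 and 2.33. Smo lay between 0.78 and 1.03 and passed 2-fold, by little, under each of the 4 other scalings. These were TMM factors (1.02), median-of-ratios factors (1.004), recentring and leaving out mitochondrial ribosomal RNA. The median-of-ratios factors were 1 for both libraries, so that setting compared read counts without scaling. Hhip and Gli1 depend most on the pseudocount because they rest on 2 and 3 reads in the non-supportive library.

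With a minimum RPKM of 5, which only Ptch1, Hhip, Cdon, Smo and Gli3 reached, 3 members were at least 2-fold higher. Beside them stand 400 of the 4725 protein-coding genes that reached that minimum. Hhip, Cdon and Smo reached it only through the supportive library, and Gli3 only through the non-supportive library. Passing this filter is thus not independent of their differences. The median log2 ratio of the members was then 2.81. That median was 1.44 with a pseudocount of 1 and 2.16 with no minimum or a minimum of 10 reads, against 2.49. Of the other pathway genes, 1 was higher by the threshold with a minimum RPKM of 5 or a 4-fold threshold, and 5 were higher and 5 lower with no minimum or at least 10 reads, and their median was -0.050 with a minimum RPKM of 5. Over all protein-coding genes, the count higher moved from 843 to 550 with a pseudocount of 1, 400 with a minimum RPKM of 5 and 306 at 4-fold. It was 1259 with no minimum and 1241 with at least 10 reads, which kept 22379 and 13874 genes. The count lower moved from 818 to 566 with a pseudocount of 1, 437 with a minimum RPKM of 5 and 297 at 4-fold. It was 1380 with no minimum and 1352 with at least 10 reads. A pseudocount of 1 kept the same 9110 genes and shrank the ratios, and the other moves follow from the genes counted or the fold asked for. TMM and median-of-ratios scaling moved no count by over 1.5 times. The exon lengths of the annotation, tried after the data were seen, moved some ratios between members within a library beyond their counting intervals. In the supportive library Ptch1 was then 7.72-fold Smo, Cdon 11.6-fold Boc and Hhip 0.313-fold Ptch1 and 0.734-fold Cdon, and in the non-supportive library Cdon was 0.903-fold Boc. No paired analysis was possible because each population has 1 library.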

Other observations

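Relatives and partners of the members, were listed after the members' values were known. Of the zinc finger factors related to the Gli proteins, Glis2 was at an RPKM of 2.003 in supportive and 1.62 in non-supportive ISEMFs and Glis3, listed under 2 identifiers, had 1300 and 972 reads under 1 and 0 under the other, while Zic1 to Zic5 had 0 reads in both libraries. Npc1, a cholesterol transporter related to Patched, was at 5.69 and 6.71.

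Neo1 encodes neogenin, a receptor which can pair with Cdon and Boc. It was at an RPKM of 73.3 and 37.8, a ratio of 1.94 (95% exact interval from the reads, 1.91 to 1.97), and so stood above every member in both libraries. Hhipl1, a gene of the Hhip family, had 69 and 6 reads, a ratio of 11.2 (interval 4.88 to 31.5). Gfra2 encodes a receptor of neurturin and, like Gas1, is related to the GDNF receptor family. It had 2 reads in supportive and 635 in non-supportive ISEMFs, an RPKM of 0.00748 against 2.44, which is 327-fold lower (interval 90.1 to 2704). Gfra1 had 426 and 190 reads, a ratio of 2.18 (interval 1.83 to 2.60). The interval of Gfra1 lies above 1 and that of Gfra2 below 1, with counting error only and no replicate of either population.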
